A study of Homo sapiens with 12 samples.

Results

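The miR-15/16 family is a group of human microRNAs that begin with nearly the same bases and so share most of their predicted targets. Its members here were the 7 array names hsa-miR-15a, hsa-miR-15b, hsa-miR-16, hsa-miR-195, hsa-miR-424, hsa-miR-497 and hsa-miR-503, taken by name from the 851 human microRNA names on the array and given below without the prefix hsa-, for human. They were measured in SUM159, a human triple-negative breast cancer line, in 4 groups of 3 arrays. The groups were Dicer shRNA with 0.5 mM metformin, control shRNA with 0.5 mM metformin, Dicer shRNA with vehicle (PBS), and control shRNA with vehicle (PBS), each treated for 24 h. All cells carried a stably integrated lentiviral PLKO.1 vector, which held either an shRNA against Dicer or a scrambled shRNA, and were grown in serum with insulin and hydrocortisone. Total RNA was hybridised to 1-colour Agilent microRNA arrays. Groups follow the sample titles, which the characteristics match. The source names of the metformin groups go against the titles. That of Dicer shRNA with metformin says control and treated, and that of control shRNA with metformin says control and untreated, so each value given for a metformin group rests on the titles. Read as written, the source names describe no exchange of these 2 groups, since both say control. If the 2 groups were exchanged, the differences between the lines with metformin would change sign. The metformin values of each line, the interaction values and the shRNA differences averaged over both treatments would change too.

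A microRNA is cut from a longer transcript in steps. Drosha frees a hairpin in the nucleus, and Dicer removes its loop in the cytoplasm, which leaves a short duplex of which usually only 1 strand, the mature arm, persists. The seed, bases 2 to 8 of the mature arm, pairs with target mRNAs. Members of this family are known to repress cell-cycle genes such as the cyclins D1 and E1 and the kinase WEE1, and miR-15a and miR-16 repress the survival factor BCL2 and are lost in many chronic lymphocytic leukaemias. Metformin is a diabetes drug that lowers mitochondrial respiration.

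The mature sequences show what the members share. RefSeq (GRCh38.p14) held all 7, and they are printed 5′ to 3′ with the seed in capitals, the members found on any array first.
miR-15a: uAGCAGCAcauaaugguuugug
miR-15b: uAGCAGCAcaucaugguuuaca
miR-16: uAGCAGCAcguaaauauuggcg
miR-195: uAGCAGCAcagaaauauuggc
miR-424: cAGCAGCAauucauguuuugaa
miR-497: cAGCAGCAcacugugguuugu
miR-503: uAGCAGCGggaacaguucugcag

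The seed AGCAGCA was common to 6 of the 7, and miR-503 carried AGCAGCG. Of 2370 mature human microRNAs in RefSeq, 7 had the first seed and 1 the second. The only one outside the family was miR-6838-5p. Past the seed the members differed. Read without gaps from base 1, miR-16 and miR-195 were identical at 19 of 21 positions, miR-15a and miR-15b at 18 of 22, and miR-15b and miR-16 at 14 of 22. The microRNAs miR-103 and miR-107, which target Dicer mRNA, are offset relatives. They carry the letters AGCAGCA from base 1 rather than base 2 (capitals below).
miR-103: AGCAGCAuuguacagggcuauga
miR-107: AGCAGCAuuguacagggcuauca

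The 7 members come from 4 pairs of hairpins. The pair MIR15A and MIR16-1 lies 57 bases apart within the non-coding gene DLEU2 on chromosome 13, and the pair MIR15B and MIR16-2 lies 59 bases apart within the condensin gene SMC4 on chromosome 3. MIR195 and MIR497 lie within MIR497HG on chromosome 17, with 209 bases between them, and MIR424 and MIR503 within MIR503HG on chromosome X, with 215 between them. The mature miR-16 of both loci is the same, so its signal cannot be assigned to either. The hairpins of the members that were detected are printed because they are what Dicer cuts, with the 5′ mature arm in capitals. They are MIR15B at chr3:160404588-160404685 (+), MIR16-2 at chr3:160404745-160404825 (+), MIR15A at chr13:50049119-50049201 (-) and MIR16-1 at chr13:50048973-50049061 (-), in GRCh38.p14.
MIR15B: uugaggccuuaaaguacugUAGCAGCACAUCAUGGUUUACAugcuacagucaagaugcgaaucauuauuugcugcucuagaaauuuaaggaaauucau
MIR16-2: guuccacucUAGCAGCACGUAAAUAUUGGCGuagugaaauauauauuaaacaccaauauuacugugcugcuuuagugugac
MIR15A: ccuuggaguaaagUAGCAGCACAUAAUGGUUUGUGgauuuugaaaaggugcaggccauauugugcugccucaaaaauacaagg
MIR16-1: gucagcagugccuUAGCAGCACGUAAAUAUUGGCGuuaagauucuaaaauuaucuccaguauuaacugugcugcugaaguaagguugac

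In each hairpin the loop between the mature arms spanned 15 to 21 bases. The opposite arm, marked with an asterisk on this array, is usually degraded.

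The arrays detected 130 to 204 human names each. All metformin arrays shared slide 2 and all vehicle arrays slide 1. The drug and the slide therefore cannot be told apart, whereas each shRNA comparison stays within 1 slide. Dicer shRNA and control shRNA arrays took fixed places on each slide, and these cannot be told apart from the line. The labels call the replicates biological without saying whether they were separate cultures, so p-values measure the spread between these arrays. The array has no probe for Dicer mRNA, and the knockdown itself was not checked. Of 7 markers of basal or mesenchymal-like breast lines, 6 were detected on all vehicle arrays and miR-31 on none. On the control shRNA arrays with metformin, 4 were detected on all 3. Their summed scaled signal was highest in control shRNA cells with vehicle, as for the family, but it also differed between the lines with metformin. With metformin it was 283.5 to 409.1 in Dicer shRNA cells and 43.8 to 85.8 in control shRNA cells. With vehicle it was 642.3 to 780.6 in Dicer shRNA cells and 2076 to 2345 in control shRNA cells. The 6 luminal markers, among them miR-200c and miR-141, were detected on no array. Of 6 blood cell markers, miR-223 was detected on all 3 control shRNA arrays with metformin and on no other array, and the other 5 on none. Of 5 markers of fibroblasts and smooth muscle, 3 were detected on all control shRNA arrays with vehicle, where their summed scaled signal was 69.7 to 86.2. That sum was 0 to 6.62 in Dicer shRNA cells with metformin, 0 on every control shRNA array with metformin, and up to 19.7 with a median of 14.3 in Dicer shRNA cells with vehicle, while miR-143 and miR-145 were never detected. The part of these markers in the results was not tested.

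The first question was which members these cells held. Of the 7, miR-15a, miR-15b and miR-16 were detected on at least 1 array. miR-195, miR-424, miR-497 and miR-503 were detected on none of the 12 arrays, as were 588 of the 851 human names (69.1%). miR-195 and miR-497, described as tumour suppressors in several carcinomas, come from 1 transcript, and so do miR-424, whose rodent counterpart is called miR-322, and miR-503. Neither transcript thus gave a detected family member in any group. miR-195, which differs from miR-16 at few positions, stayed undetected on the arrays where miR-16 was seen.

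The other products of the same hairpins and clusters gave little signal. Of the 7 opposite arms on the array, 6 were detected nowhere. The exception was miR-15a*, detected on replicate 3 of Dicer shRNA with vehicle at a raw signal of 3.09 with a stated error of 0.747. Its scaled signal of 2.83 was under the floor used in the fit. The 5 cluster partners of miR-424 and miR-503 on chromosome X (miR-542-3p, miR-542-5p, miR-450a, miR-450b-3p and miR-450b-5p) and miR-646 were detected on no array.

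**Figure D1:**
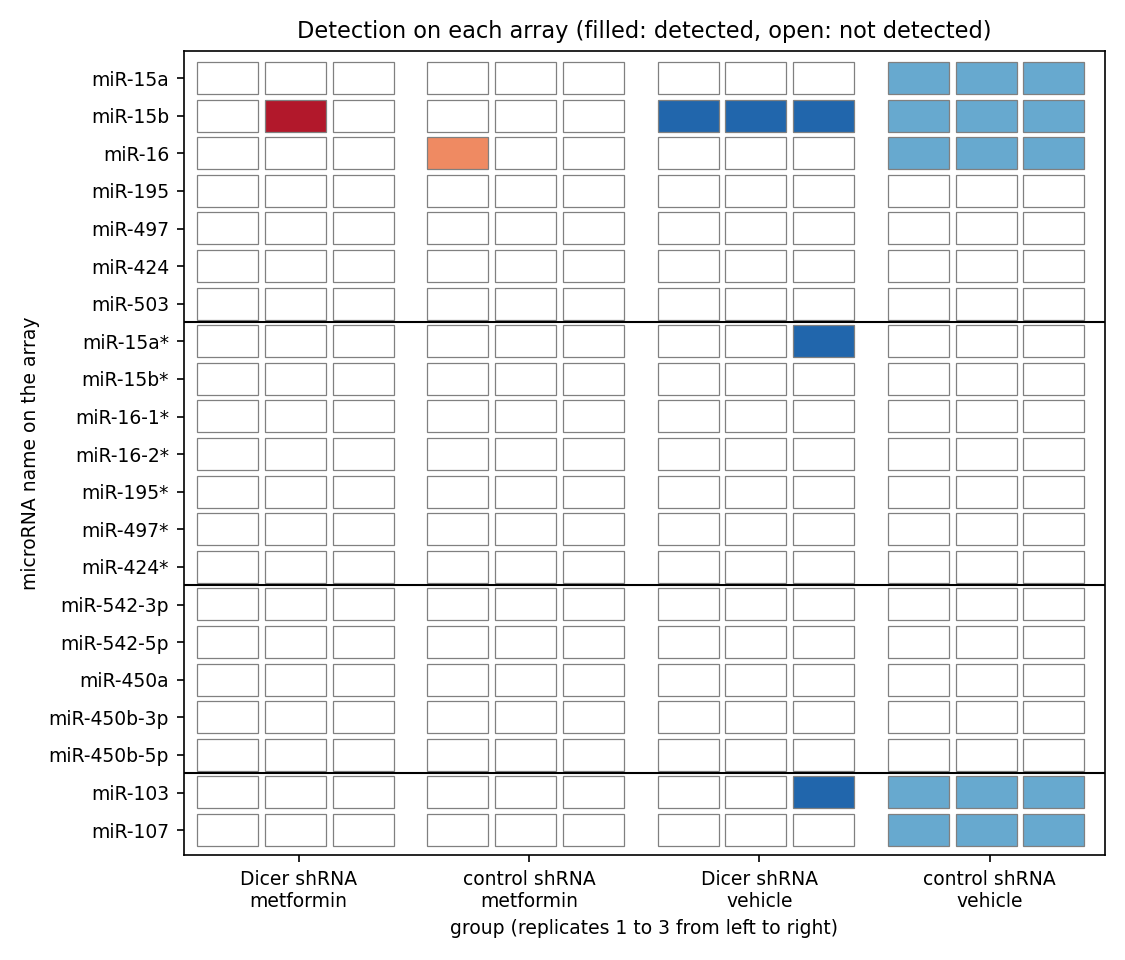
Detection of the 7 family members (top block), opposite arms, chromosome X cluster partners, and offset relatives (bottom block), 1 row per name, on the 12 arrays, 3 per group and replicates 1 to 3 from left to right; a filled cell means detected. Control shRNA with vehicle is the group with miR-15a, miR-15b and miR-16 on all 3 arrays, and miR-15b is filled on all 6 vehicle arrays.

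Signals are on a linear scale with no unit, scaled so that each array has the same 75th percentile over the 98 human names detected on all 12 arrays. A floor of 3.01 (log2 1.59) stands in for undetected or dimmer signals, so a group below detection has only an assumed upper limit. Signals of different members belong to different probes and are not set against each other as levels.

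miR-15b gave 7 measured values. Its scaled signal was 5.93 on replicate 2 of Dicer shRNA with metformin and was not detected on replicates 1 and 3, and it was not detected on any control shRNA array with metformin. With vehicle it was 26.3, 34.0 and 44.8 in Dicer shRNA cells, against 184.5, 197.2 and 229.2 in control shRNA cells. The groups thus fell into 3 levels without overlap, high in control shRNA with vehicle, lower in Dicer shRNA with vehicle, and at or near the detection limit in both metformin groups. The metformin groups, neighbours at the low end, overlapped. Such separation was common: of the 208 names fitted below, the lines with vehicle were apart in either direction for 63%. Metformin and vehicle were apart for 91.8% in the control line and for 37% in the Dicer shRNA line. The group means with vehicle were 35.0 ± 9.30 for the Dicer shRNA line and 203.6 ± 23.0 for the control line (SD, n = 3 each), or a coefficient of variation of 26.6% and 11.3%.

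miR-16 gave 4 measured values. It was detected on no Dicer shRNA array with either treatment. In control shRNA cells it was 9.81 on replicate 1 with metformin and undetected on replicates 2 and 3, against 14.5, 13.2 and 18.5 with vehicle. The vehicle arrays of the control line were therefore the highest, and the 1 metformin value lay below all 3 of them.

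miR-15a gave 3 measured values. It was detected on no array with metformin and on no Dicer shRNA array. In control shRNA cells with vehicle it was 5.19, 8.66 and 11.5, with raw signals 3.68 to 5.70 times their stated error, against 13.7 to 13.9 times for miR-15b in the same group. Its spread there was 37.2% of the mean, the largest of the 3 members.

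**Figure D2:**
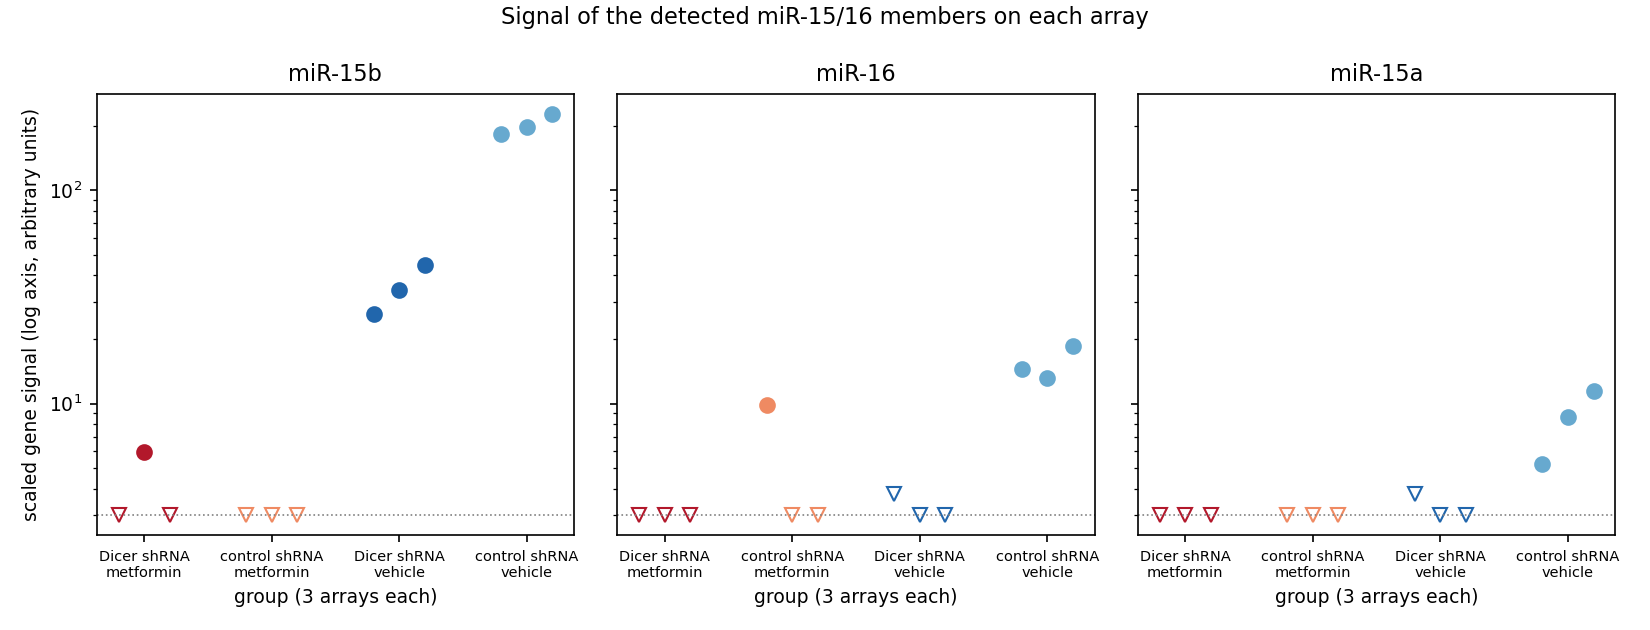
Scaled gene signal (log axis, no unit) of miR-15b, miR-16 and miR-15a on each of 12 arrays by group; filled circles are detected signals and open triangles the assumed upper limit where the name was not detected. miR-15b runs from 184.5 to 229.2 in control shRNA with vehicle and from 26.3 to 44.8 in Dicer shRNA with vehicle, and miR-16 and miR-15a have 1 and 0 detected values outside control shRNA with vehicle.

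Differences were fitted with limma over 208 human names, namely those with a complete set of 3 detections in some group. miR-15b was detected on all 3 arrays of both vehicle groups and passed only through them. Part of its lower values with metformin is therefore built in by this filter. miR-15a and miR-16 passed only through control shRNA with vehicle, so part of their lower values elsewhere is built in as well. The p-values of comparisons with those lower groups, averages and interactions included, describe the fit and are no independent support for a fall. The other 4 members were not tested.

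Dicer shRNA cells with vehicle had less of each of the 3 members than control shRNA cells with vehicle. miR-15b fell by 2.57 ± 0.27 on the log2 scale, or 5.93-fold (95% interval -3.16 to -1.97, adjusted p 2.5e-05, limma with Benjamini-Hochberg adjustment). Here and below, the ± of a fitted difference is its standard error. Single Dicer shRNA arrays lay 7.70-, 5.97- and 4.52-fold below the control mean for miR-15b. miR-16 was at least 4.71-fold lower (adjusted p 0.00036) and miR-15a at least 2.47-fold lower (adjusted p 0.00031), since no Dicer shRNA array detected either. For these bounds an undetected array took the floor, or its own lowest detected signal where that was higher, as on replicate 1 of Dicer shRNA with vehicle (3.75). These limits come from all human names and not from the probe itself, so an undetected signal could lie above them. Each fold given as at least a value holds only under these limits. The bounds of miR-16 and miR-15a lie below the 5.93-fold fall of miR-15b, so the arrays could not show whether the 3 members fell by the same factor.

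In that comparison 38% of the 208 tested names were called lower and 21.6% higher, or 59.6% in either direction. The groups did not overlap for any of the 3 members, and were apart and lower for 39.4% of the 208 names and apart in either direction for 63%. The size of the miR-15b fall depended on the scaling, from -2.05 after quantile normalization to -3.77 after scaling to viral microRNA probes, with the same direction for the 3 members under each scaling. Viral scaling gave -3.20 for miR-16 and -2.27 for miR-15a, against -2.34 and -1.41. Quantile normalization gave -2.62 for miR-16 and -0.98 for miR-15a, which only just passed (adjusted p 0.048, limma). The deposited series matrix gave -1.91 and -0.91 in the same order. Adding 16 to each signal instead of the floor gave -0.96 and -0.59. The bounds above thus depend on the processing too. The 4 control features named hur that were detected on all arrays changed by a median of -0.81, all lower, and the 10 viral probes detected on all arrays by 0.87, all higher. Their part in the result was not tested. Of the 165 names detected on all control shRNA arrays with vehicle, 12.7% were detected on no Dicer shRNA array with vehicle, miR-15a and miR-16 among them, and 73.3% on all 3, miR-15b among them. An array level cannot tell fewer copies per cell from fewer cells that hold the microRNA.

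With metformin the lines could hardly be compared, because the members were near or under the detection limit in both. miR-15b, seen on 1 Dicer shRNA array and no control shRNA array, differed by 0.33 ± 0.27 (95% interval -0.27 to 0.92, adjusted p 0.38, limma). miR-16, seen on no Dicer shRNA array and 1 control shRNA array, differed by -0.57 ± 0.38 (95% interval -1.42 to 0.28, adjusted p 0.27, limma). Neither passed, and miR-15a was detected in neither group and has no fold. The groups overlapped for both. In this comparison 25% of the 208 names were called lower and 13.9% higher, or 38.9% in either direction, and the groups were apart and lower for 39.9% and apart in either direction for 53.8%. The hur features had a median change of 1.95 and the viral probes of -0.49.

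In the average of the shRNA differences of both slides, each of the 3 was called lower in Dicer shRNA cells, as were 35.6% of the 208 names (51% were called in either direction). The average was -1.12 ± 0.19 for miR-15b (adjusted p 0.00085), -1.45 ± 0.27 for miR-16 (adjusted p 0.0013) and -0.71 ± 0.16 for miR-15a (adjusted p 0.0042), all limma. These averages mix a measured fall on slide 1 with values at or near the floor on slide 2. The miR-15a average is the slide 1 value divided by the number of slides, because both groups of slide 2 lay at the floor. After quantile normalization miR-15b (-0.69) and miR-15a (-0.49) no longer passed (adjusted p 0.16 for each), and in the deposited series matrix miR-15a did not (-0.45, adjusted p 0.061).

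Metformin was the other factor of the design. On the metformin arrays of the control line each of the 3 members was lower than with vehicle. miR-15b, high on each vehicle array, was at least 67.4-fold lower (adjusted p 9.9e-09, limma), since no metformin array detected it. miR-15a was at least 2.66-fold lower (adjusted p 0.00015). miR-16, seen on 1 of 3 metformin arrays, fell by 1.77 ± 0.38 (95% interval -2.62 to -0.92, adjusted p 0.0013), a value that the floor limits. It was -2.34 without replicate 1 of the metformin arrays, -2.83 after scaling to viral probes and -0.73 with 16 added to each signal instead of the floor. The miR-15b difference of -6.07 became -6.93 after viral scaling, -5.67 in the series matrix and -3.76 with 16 added. That of miR-15a, -1.41, became -2.27 after viral scaling and -0.98 after quantile normalization. It was -0.91 in the series matrix and -0.59 with 16 added, so these bounds depend on the processing. Here 40.4% of the 208 names were called lower and 47.6% higher, or 88% in either direction, and the groups were apart in either direction for 91.8%. The hur features moved with the members, by a median of -3.84 with all 4 lower, and the viral probes by a median of 1.38 with all 10 higher. Their part was not tested.

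On metformin replicate 1 of the control line, miR-16 and miR-15b lay at unequal distances below their vehicle means. A single detected value on 1 array cannot tell a stray detection from a difference within the family. miR-16 was 1.55-fold lower there than its vehicle mean, and miR-15b, which comes from the same chromosome 3 transcript as 1 source of miR-16, was at least 67.4-fold lower on the same array. On replicates 2 and 3 miR-16 was at least 5.07-fold lower. Of the 165 names detected on all control shRNA vehicle arrays, 5 were detected on exactly 1 control shRNA metformin array, and miR-16 was the 1 of these on replicate 1. Its raw signal was 8.97 with a stated error of 1.85. Among the 8 human names that replicate 1 alone of its group detected, the brightest was at 9.81, the miR-16 value, and the median was 2.85.

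In Dicer shRNA cells miR-15b was the 1 member that could be compared. It fell by 3.18 ± 0.27, or 9.07-fold, with metformin (95% interval -3.78 to -2.59, adjusted p 2.5e-05, limma). Since 2 of the 3 metformin arrays lay at the floor, the floor limits this value. miR-16 and miR-15a were detected in neither Dicer shRNA group. The background here was 18.3% of 208 names called lower and 6.25% higher. The groups were apart and lower for 20.7% and apart in either direction for 37%. That balance turned round in the deposited series matrix, where 44 names were called higher and 19 lower, against 13 and 38. The median change was -0.999 for the hur features, all 4 lower, and 0.34 for the viral probes, of which 8 were higher. Of the 121 names detected on all 6 vehicle arrays, miR-15b was among the 13.2% detected on no control shRNA metformin array, and among the 6 names (4.96%) detected on exactly 1 Dicer shRNA metformin array. Of the 165 names detected on all control shRNA vehicle arrays, 26.7% were detected on no Dicer shRNA metformin array and 66.1% on all 3. On the control shRNA metformin arrays those shares were 32.7% and 61.8%. miR-15a lay in the undetected share in both.

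**Figure D3:**
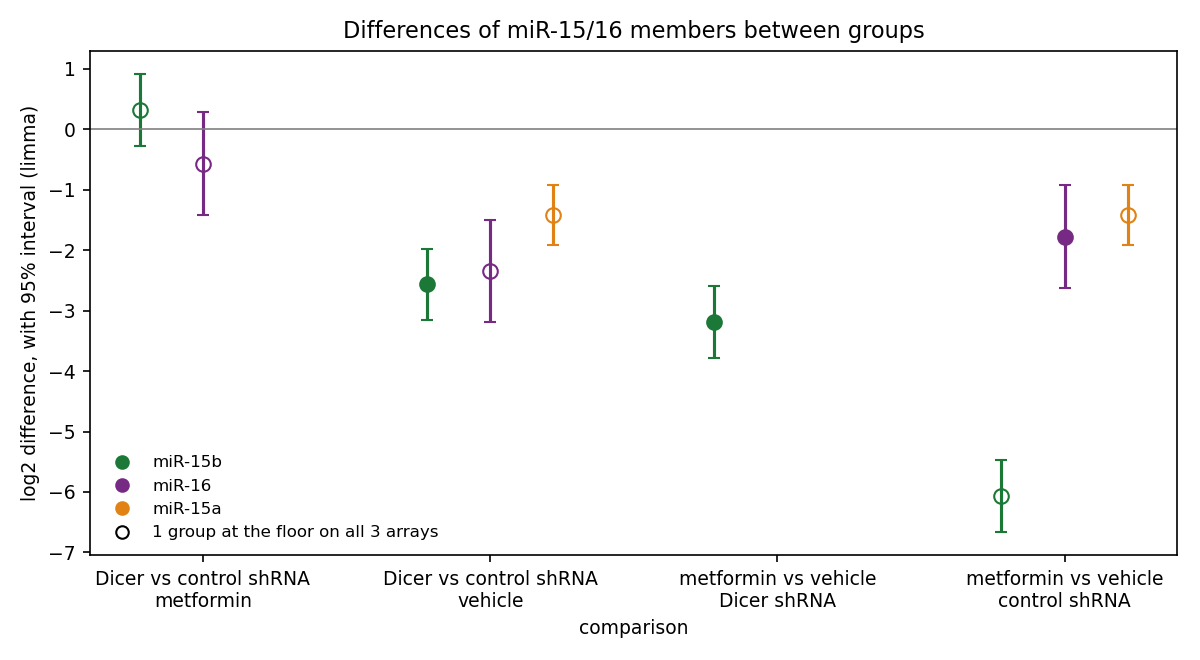
Log2 difference of miR-15b, miR-16 and miR-15a with its 95% interval (limma, 3 arrays per group) in 4 comparisons; at open circles the floor stands in for 1 group on all 3 arrays, and pairs with both groups undetected are left out. miR-15b lies at -2.57 for Dicer against control shRNA with vehicle and at 0.33 with metformin.

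The metformin differences of the 2 lines were set against each other as an interaction, which 37% of the 208 names passed in the positive direction and 39.4% in the negative, 76.4% in all. The metformin difference of miR-15b in Dicer shRNA cells minus that in control shRNA cells was 2.89 ± 0.38 (95% interval 2.05 to 3.74, adjusted p 7.9e-05, limma). It was 1.77 ± 0.54 for miR-16 (adjusted p 0.013) and 1.41 ± 0.32 for miR-15a (adjusted p 0.0026). In each case the Dicer shRNA line was lower with vehicle, and both lines lay at or near the floor with metformin. For miR-16 and miR-15a the Dicer shRNA line was at the floor with and without metformin, so the value is the control line's own fall with its sign turned. After scaling to viral probes the interaction was 3.96 for miR-15b, 2.83 for miR-16 and 2.27 for miR-15a, and with 16 added to each signal it was 2.26, 0.73 and 0.59 in the same order. After quantile normalization miR-16 (1.84, adjusted p 0.054) and miR-15a (0.98, adjusted p 0.12) no longer passed.

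The offset relatives were lower in Dicer shRNA cells with vehicle and in control shRNA cells with metformin. miR-103 was detected on no metformin array. With vehicle it was 8.03 on replicate 3 of the Dicer shRNA line and undetected on the others, against 53.3, 51.8 and 61.4 in control shRNA cells, a difference of -3.73 ± 0.31 (adjusted p 4.8e-06, limma), which the floor limits. miR-107 was detected only in control shRNA cells with vehicle, at 20.7, 21.8 and 30.3. Between metformin and vehicle in the control line, miR-103 was at least 18.4-fold and miR-107 at least 7.95-fold lower. Both names passed the filter only through control shRNA with vehicle, so part of these lower values is built in. Of the 208 names, 38% were called lower between the lines with vehicle and 40.4% with metformin in the control line.

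The microRNAs nearest to each member over the 12 arrays were found from log2 values centred on each name's mean, among 205 other tested names. The measure was the root mean square difference, and it describes the shape, which the 4 groups and shared arrays set. The nearest to miR-15b was miR-27a at 0.34, then miR-27b at 0.35, miR-19b at 0.45, miR-146a at 0.50 and miR-26a at 0.50, against a median of 2.69 over all 205. miR-27a was 20.4, 25.1 and 28.97 in Dicer shRNA cells with vehicle, against 182.3, 196.8 and 286.3 in control shRNA cells with vehicle, and undetected with metformin. Like miR-15b, miR-27b was seen with metformin only on replicate 2 of the Dicer shRNA line, at 5.97.

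miR-15a lay nearest to miR-224 (0.028), miR-199a-3p (0.080), miR-34a (0.10), miR-196b (0.13) and miR-151-5p (0.15), all of them detected on the 3 control shRNA arrays with vehicle alone (median over all names 1.02). Names of that kind have 9 of their 12 values at the floor, which brings them close by construction. miR-16 lay farther from any name, with miR-30e at 0.48, miR-99a at 0.49, miR-20a at 0.52, miR-214 at 0.53 and miR-196b at 0.56 (median 1.29). None of these 5 was detected on the control shRNA metformin arrays. Within the family, miR-15a and miR-16 differed by 0.60, miR-15b and miR-16 by 1.96, and miR-15a and miR-15b by 2.03, so the pair with the most alike mature sequence of the 3 detected members had the least alike profiles on this scale, on which a brighter probe can fall farther.

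**Figure D4:**
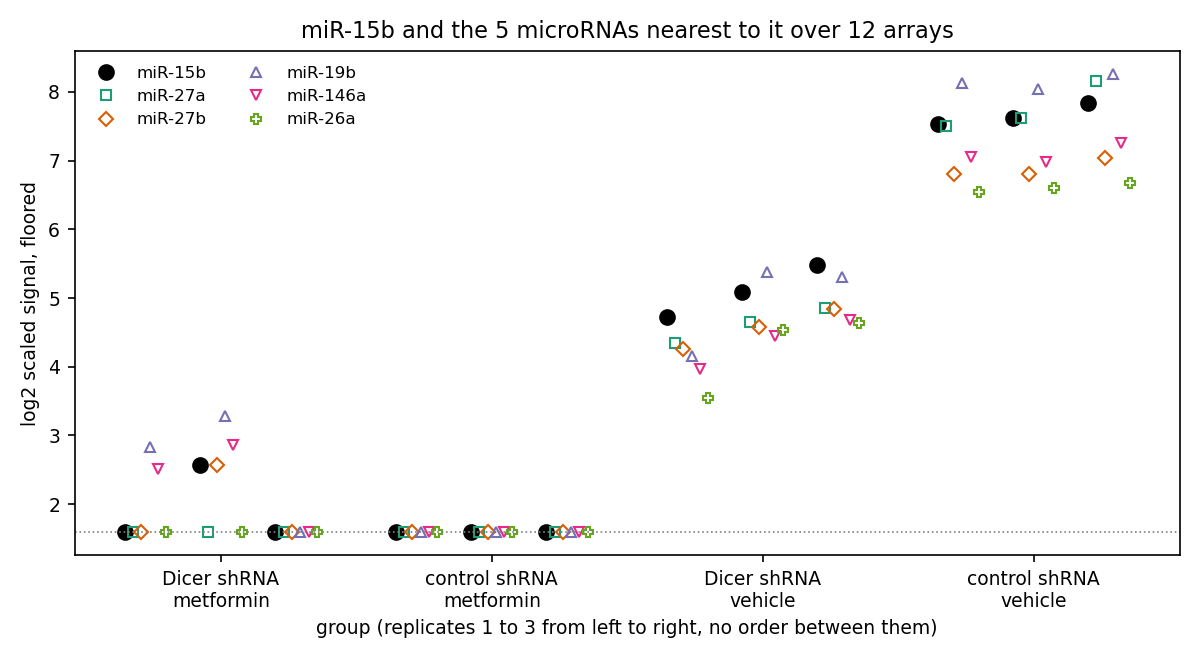
Log2 scaled signal with floor (dotted line) of miR-15b (black) and the 5 nearest tested names, 1 column of points per array, grouped by line and treatment. All 6 names lie at the floor on the 3 control shRNA arrays with metformin, and miR-15b and miR-27b lie above it with metformin only on replicate 2 of Dicer shRNA.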

How the data were processed

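Per the file headers, every array table pairs a microRNA name with its total gene signal (a linear intensity), the error of that signal and whether it was detected. The submitters' processing notes name Agilent Feature Extraction 9.1, and its background settings were not stated in the sources. Undetected names hold 0.1. The deposited series matrix gives log2 values of 221 names, with 0 where undetected. Its normalization and centring stay unknown, and it served as an alternative with zeros set to a floor by the arrays' rule. The label protocol describes an mRNA kit.

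Scaling used the 75th percentile over the 98 human names detected on all 12 arrays (factors 0.869 to 1.20). The 5th percentile of the detected signals was taken per array, and its median was the floor. limma 3.58.1 (R 4.3.3) fitted 4 group means to the 208 tested names (8 residual degrees of freedom, prior 1.85). Calls are at a Benjamini-Hochberg adjusted p under 0.05 over the 208. Floored groups have no spread, so errors of members undetected in some groups are understated. The 3 arrays per group limit the precision. No replicate pair held identical values, and replicates differed by more than their stated error (root mean square z 1.08 to 2.65). Alternatives covered scaling, floor, filter, array weights, the series matrix, the replicate number and each array left out.

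The family and the lists were chosen with earlier results of these data known. The text names the 7 members, their opposite arms and cluster partners, miR-103, miR-107, miR-646 and the 5 nearest names per tested member. Sequences, positions and overlapping host genes are RefSeq's (GRCh38.p14). Python 3.11.15, pandas 2.3.3, matplotlib 3.10.9 and the R package data.table in version 1.17.8 were used.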

Additional observations from a re-analysis of the deposited data

Results flagged for a closer look

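The difference between the lines in their metformin response passed the interaction test for each tested member. It was 2.89 log2 for miR-15b, 1.77 for miR-16 and 1.41 for miR-15a, Dicer shRNA minus control shRNA (limma, adjusted p 7.9e-05, 0.013 and 0.0026). Floored values enter each of the 3, and 76.4% of the 208 tested names passed the same test in either direction. With metformin both lines lay at or near the floor, so these values largely restate the difference between the lines with vehicle. After quantile normalization miR-16 and miR-15a no longer passed. Since the groups had 3 arrays each, no test for a single outlying array was made.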

How the results depend on the processing

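The counts of members called, 3 for Dicer shRNA with vehicle, 0 with metformin, 3 averaged over slides, 3 and 1 for metformin in the control and the Dicer shRNA line, and 3 for the interaction, were the same under no scaling, scaling to viral probes, adding 16 to each signal instead of flooring, no filter (the 247 human names with a signal above the floor on any array), array weights and the replicate block, and without any 1 array. In the same order of comparisons, 59.6%, 38.9%, 51%, 88%, 24.5% and 76.4% of all 208 tested names were called in either direction. Quantile normalization left 1 member for the average and 1 for the interaction, and the series matrix left 2 for the average. No call changed direction. The differences that missed the threshold with metformin are 0 for miR-16 without replicate 1 of control shRNA and 0 for miR-15b without replicate 2 of Dicer shRNA. Same-numbered arrays showed no clear pairing. The r of their deviations was -0.27 to 0.69, with a median of 0.091 and 9 of 18 pairs over 0.1. For differently numbered arrays it was -0.58 to 0.57, with a median of -0.050 and 13 of 36 pairs over 0.1. With the replicate block miR-15b gave -2.57 (adjusted p 8.1e-05, limma) for Dicer shRNA with vehicle, and no call of a member changed. Scaling to the 75th percentile over all human names was not run, since that percentile is the undetected value on every array.

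All names called with metformin between the lines numbered 52 after viral scaling and 126 with array weights, against 81, and for metformin in the Dicer shRNA line 82 with array weights and 32 without replicate 3 of Dicer shRNA with metformin, against 51. Higher and lower calls were 62 and 49 after quantile normalization and 4 and 128 after viral scaling for the lines with vehicle, against 45 and 79. They were 28 and 24 after viral scaling with metformin (29 and 52), and 52 and 41 or 3 and 116 averaged over slides (32 and 74). For metformin they were 44 and 117 after viral scaling in the control line (99 and 84), and in the Dicer shRNA line 25 and 20 after quantile normalization, 15 and 24 after viral scaling, 6 and 44 unscaled, 32 and 50 with array weights and 44 and 19 in the series matrix (13 and 38). For the interaction they were 114 and 21 after viral scaling (77 and 82). Viral scaling moved the median of all 208 by -0.98 with vehicle between the lines and by -1.43 for metformin in the control line. Of the differences of single members, 293 kept direction and side of the threshold under the alternatives. Another 5 kept direction but no longer passed, and 2 that had not passed fell to no difference. Signals near the detection limit leave only bounds for miR-16 and miR-15a in most groups.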
